A study of Homo sapiens with 12 samples.

Results

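AP-1 is a family of paired transcription factors built from FOS and JUN proteins. The genes examined here were FOS, FOSB, FOSL1, FOSL2, JUN, JUNB, JUND and ATF3, chosen by name as the FOS genes, the JUN genes and ATF3, which encodes a related stress-induced factor. These 8 genes, of 20033 protein-coding genes, were described through the peaks of acetylated histone H3 lysine 27 (H3K27ac), which marks promoters and enhancers in use, within 1 kb and within 50 kb of their GENCODE transcript starts. The study measured H3K27ac by CUT&RUN in HCT116, a human colorectal carcinoma cell line. The 3 groups were untreated cells, cells treated with 1 μM cobimetinib for 24 h, and cells treated with 100 ng/mL TNFα for 24 h, each with 2 replicates and all from this unmodified line. Cobimetinib inhibits MEK, a kinase of the MAP kinase cascade, and TNFα is an inflammatory cytokine that activates NF-κB, JNK and other MAP kinases, so the comparisons addressed how AP-1 and MAP kinase signalling bears on the chromatin of the cells. Nothing in the labels says that replicates came from separate cultures, so p-values measure the spread between these libraries, which may be technical. The 6 matching IgG control libraries were not analysed here.

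A FOS protein pairs with a JUN protein, and the pair binds the word TGAGTCA, whose reverse complement is TGACTCA. FOS, FOSB, JUN and ATF3 are known as immediate early genes, switched on quickly by growth factors, stress and cytokines, whereas FOSL1 and FOSL2 respond later and stay on while ERK, the kinase below MEK, is active. In colorectal cells FOSL1 is known as an ERK-dependent gene that AP-1 itself can activate.

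Before the values, the libraries need a description. The lists held from 69813 to 124771 peaks. Untreated replicate 2, which its peak names mark as merged after resequencing, stood apart: the median width of its 20000 highest peaks was 380 bp, against 922 to 1266 bp in the other 5 libraries, and 7102 of its peaks shared the score at that limit, against 332 to 533. Results against untreated cells are therefore given with and without it. Of 7 markers of colon epithelium, 2 to 6 had a promoter peak among the 20000 highest in a library. KRT8 did so in every library and VIL1 in none, and the liver marker ALB and the blood markers PTPRC and CD3E had none, while COL1A1, listed as a fibroblast marker, had one in all 6 libraries.

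The control sequences at these genes show which inputs they are known to read. Short stretches of hg38 are printed 5′ to 3′ along the strand of each gene, with the matched words in capitals. The first 4 lie before the first transcript start, inside or beside the promoter peak. The FOS stretch, at chr14:75278489-75278548, holds a CArG box, the word read by serum response factor. The FOSB stretch, at chr19:45467646-45467756, holds a cyclic AMP response element (CRE, the word TGACGTCA) and a CArG box. The JUN stretch, at chr1:58784082-58784139 on the minus strand, holds TGACATCA, the variant word through which JUN and ATF2 are known to act on the JUN gene. The JUND stretch, at chr19:18281790-18281847 on the minus strand, holds a CRE. All 4 are intergenic except that of FOSB, which falls in an intron of an ERCC1 transcript.
FOS: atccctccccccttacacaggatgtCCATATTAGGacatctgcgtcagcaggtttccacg
FOSB: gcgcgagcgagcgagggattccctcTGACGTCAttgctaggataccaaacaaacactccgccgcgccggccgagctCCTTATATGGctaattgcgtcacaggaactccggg
JUN: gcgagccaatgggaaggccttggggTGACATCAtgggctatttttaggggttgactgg
JUND: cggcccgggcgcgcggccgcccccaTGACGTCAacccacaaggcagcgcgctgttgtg
Of the 500 bp before the first start of all 20033 protein-coding genes, 2.47% held a CArG box, 2.23% a CRE and 2.56% the JUN-type word, on either strand. In the RefSeq promoter table (GRCh38.p14, 300 bp around a start), 7 of the 8 genes were matched; the AP-1 word stood in the FOSL2 entry and in 4.949% of all 35116 entries.

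The second set lies in regions away from the starts, which are described below. Regions are the 20000 highest peaks of each library merged within 100 bp. The FOSL1 stretches are from a region 11 kb upstream, at chr11:65912938-65912998 (intergenic), and from an intron of FOSL1, at chr11:65899361-65899417. The JUN stretch is 28 kb downstream, at chr1:58755488-58755544, in an intron of the noncoding gene ENSG00000283445. The ATF3 stretch, at chr1:212559002-212559096, lies 6 kb upstream of the first start and overlaps an exon of the noncoding gene ENSG00000260805. The FOSL2 stretch, at chr2:28408954-28409010, is intronic. Capitals mark overlapping NF-κB sites in the first, the AP-1 word in the others, and also a CRE, 37 bases further along, in that of ATF3.
FOSL1 upstream: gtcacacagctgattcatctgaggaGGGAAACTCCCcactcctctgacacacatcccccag
FOSL1 intron: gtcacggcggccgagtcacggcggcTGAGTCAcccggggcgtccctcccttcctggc
JUN downstream: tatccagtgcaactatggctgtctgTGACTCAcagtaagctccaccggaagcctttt
ATF3 upstream: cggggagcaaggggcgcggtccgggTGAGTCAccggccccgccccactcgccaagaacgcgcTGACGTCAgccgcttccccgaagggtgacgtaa
FOSL2 intron: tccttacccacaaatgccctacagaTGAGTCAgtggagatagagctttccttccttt
Of windows as long as these regions, centred on all 38598 regions, 18.6% held an NF-κB site at the length of the FOSL1 upstream region. The AP-1 word stood in 34.2%, 35.0%, 27.8% and 38.3% at the lengths of the FOSL1 intronic, JUN, ATF3 and FOSL2 regions, and the CRE in 1.41% at that of ATF3. A word is a match of letters, and no binding was measured here.

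Most of the genes carried H3K27ac at a start in every library, but the level differed widely among them. A promoter peak lay within 1 kb of a start in all 6 libraries for 6 of the 8 genes, a state shared by 51.9% of all protein-coding genes. The same 6 genes had one among the 20000 highest peaks of every library, beside 25.8% of genes. FOSL1 had one in 5 libraries, and JUNB in 1, as had 6.87% of genes. Levels are given as the rank of the best-scoring promoter peak in its own list, where 1 is the highest score, because scores rise with sequencing depth, which is unknown here.

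FOS, the founding member of the family, stood highest. The best peak at its start ranked 282.5 and 169.5 without treatment, 1166 and 298 with cobimetinib, and 334.5 and 109 with TNFα. It was ahead of the promoters of at least 95% of genes in each library, since 0.195% to 4.16% of genes ranked higher. JUND, the JUN protein that most cells express steadily, ranked 1987 and 887.5 in untreated cells, 1308 and 1156 with cobimetinib, and 1251 and 607.5 with TNFα. FOS ranked above JUND in 6 of 6 libraries.

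FOSB, the closest relative of FOS, ranked 2865 and 690.5 in untreated cells, 3159 and 3180 with cobimetinib, and 2521 and 1749 with TNFα. JUN, the most potent activator among the JUN proteins, ranked 2777 and 8823 in untreated cells, 5892 and 3099 with cobimetinib, and 4182 and 7361 with TNFα. FOSL2, which encodes the FOS-related protein FRA2, ranked 3724 and 10540 in untreated cells, 8192 and 6551 with cobimetinib, and 5283 and 2715 with TNFα. These genes were neighbours in the order of median rank, and the order was not the same in every library: JUND ranked above FOSB in 5 libraries, FOSB above JUN in 4, JUN above FOSL2 in 5 and FOSL2 above ATF3 in 4.

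ATF3, a factor that can activate or repress depending on its partner, ranked 10083 and 5235 in untreated cells, 14419 and 6016 with cobimetinib, and 8988 and 7836 with TNFα. FOSL1, which encodes FRA1, ranked 34087 in untreated replicate 1 and had no peak in replicate 2, 16100 and 13085 with cobimetinib, and 40616 and 23205 with TNFα. These best-scoring FOSL1 peaks did not touch a start, and lay 559 to 772 bp from one, inside the gene. Cobimetinib replicate 2 had a further peak just before the first start, at rank 20945. JUNB, which restrains JUN activity in many settings, had a peak in TNFα replicate 1 alone, at rank 43557 and 887 bp from its single start.

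**Figure D1:**
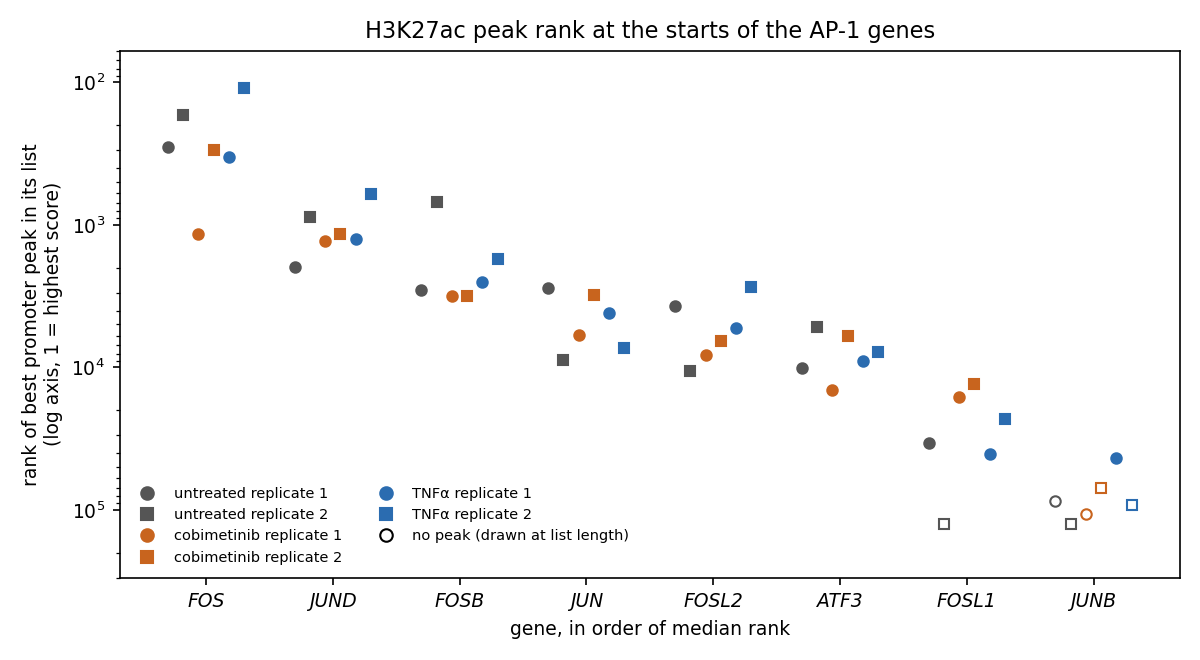
Rank of the best-scoring H3K27ac peak within 1 kb of a start of each gene in each of the 6 libraries, on an inverted log axis, with open symbols for lists with no such peak. FOS sits between 109 and 1166 in all 6 libraries, and FOSL1 and JUNB stand below the other genes, with JUNB closed in 1 library alone.

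Beyond its promoter window JUNB had a marked region, which also lies at a start of HOOK2. A region at chr19:12792757-12794609, which begins 1271 bp after the JUNB start and overlaps its single exon and 3′ UTR, was held by all 6 libraries. It lies 175 bp from a HOOK2 start, and its best peaks began 1.81 to 2.13 kb after the JUNB start. Its best peak ranked 8290 and 1340 in untreated cells, 12106 and 5142 with cobimetinib, and 2131 and 3641 with TNFα. It was named after its values were seen, as were the FOSL1 region 1.8 kb upstream, the ATF3 region 3.2 kb upstream and the JUND region 10 kb upstream described below. JUNB lies in a crowded stretch, with starts of 7 other protein-coding genes within 50 kb, against none around FOS, FOSL2 and JUN, so regions there cannot be assigned to JUNB.

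At the promoters, no gene passed the test in any comparison, so none of these 7 can be said to differ between treatments. Ranks were compared as −log2 of the rank with limma over 13544 promoters that had a peak in at least 2 libraries, which excludes JUNB. A positive difference is a higher rank, and 1 unit is a doubling. The adjusted p-values (Benjamini-Hochberg) of the 7 genes ran from 0.676 to 0.985 for cobimetinib against untreated cells, from 0.969 to 0.987 for TNFα against untreated cells, and were 1.0 for TNFα against cobimetinib. Of all 13544 promoters, 0 passed an adjusted p of 0.05, the background of 0.0% in each comparison, while 983, 447 and 683 had an unadjusted p under 0.05 and 1, 0 and 0 of these were among the 7 genes.

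That 1 gene was FOSL1. Against untreated cells its difference with cobimetinib was 2.17 (SE 1.00, unadjusted p = 0.0469, adjusted p = 0.676, limma), with both cobimetinib libraries above both untreated ones. Without untreated replicate 2, where the peak was absent, the difference was 1.23 (adjusted p = 0.717). Without untreated replicate 1 it was 3.10 (adjusted p = 0.00485), on a single untreated library that has no peak. When the window was widened to 2 kb the difference was −0.78. That window reached a peak of the upstream region described below in untreated replicate 1 and TNFα replicate 1, and a weak intronic peak in untreated replicate 2, at rank 31498.

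No difference of the other genes passed an unadjusted p of 0.05. For FOS the difference with cobimetinib was −1.43 (SE 1.07, adjusted p = 0.762), and −1.06 without untreated replicate 2; for TNFα against cobimetinib it was 1.63 (SE 1.07, adjusted p = 1.0). For FOSB the difference with cobimetinib was −1.17 (SE 0.94), and −0.15 without untreated replicate 2, so that most of it came with that library. The differences of JUN and JUND with cobimetinib, 0.21 and 0.11, lay below the median of all promoters, 0.36, and were negative when each library was centred on its median (−0.32 and −0.42). Medians of the other comparisons over all promoters were 0.13 for TNFα against untreated cells and −0.24 for TNFα against cobimetinib.

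Ranks that did not overlap between groups were as common among all genes. In cobimetinib against untreated cells, FOSL1 ranked higher without overlap, beside 22.1% of all tested promoters, and FOS and FOSB ranked lower, beside 11.8%. In TNFα against untreated cells the ranks of all 7 genes overlapped, while 12.5% of promoters were higher and 15.2% lower. In TNFα against cobimetinib, FOSB and FOSL2 ranked higher, beside 14.7%, and FOSL1 lower, beside 29.3%. The FOSL1 order depends on the window. In TNFα replicate 1 a peak at rank 13547, between the cobimetinib ranks, began just past it, 1.21 kb after the first start. With 7 genes, counts of 0 to 2 are near these shares and are not a result about the family.

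Peak widths showed the same. The JUN promoter peak was 1560 and 599 bp wide in untreated cells, 1844 and 1752 bp with cobimetinib, and 1522 and 1530 bp with TNFα. It was wider with cobimetinib than in either untreated library, beside 11.2% of promoters, with none narrower (2.76%), and narrower with TNFα than with cobimetinib, as was that of FOSB, beside 23.9%. FOS had some of the most variable widths, 2225 and 827 bp in untreated cells, 1116 and 706 bp with cobimetinib, and 1928 and 443 bp with TNFα, with overlap in every comparison. Between TNFα and untreated cells no gene's widths stood apart, beside 6.08% of promoters wider and 2.67% narrower with TNFα, and with TNFα none was wider than with cobimetinib, beside 14.6%.

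In all, 59 regions lay within 50 kb of the genes, those at their own starts included. Groups differed fully in which libraries held them at a few. Of the 59, 3 were held in untreated and TNFα-treated cells and not with cobimetinib, and 4 with cobimetinib and not in untreated cells. A library held a region when one of its 20000 highest peaks overlapped it. Peaks with equal scores at that limit were taken in list order, so for these being held depended on place in the list. In untreated replicate 2, where 7102 peaks tied there, 2 peaks shared rank 21374.5. The one 44.9 kb after the JUN start was taken, and the one 24.6 kb before the FOSB start was not. FOSB had 12 regions, FOSL1 and JUNB 11 each, JUND 9, ATF3 5, FOS and JUN 4 each and FOSL2 3. All 6 libraries held 23 of the 59, beside 20.5% of all 38598 regions, 12 were held by 1 library, and 22 lay at the start of another protein-coding gene.

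No region near the genes passed the test across all regions, although regions elsewhere did. Of the 38598 regions, limma placed 167 higher and 73 lower with cobimetinib than in untreated cells (0.433% and 0.189%), 110 higher and 3 lower with TNFα than in untreated cells (0.285% and 0.00777%), and 386 higher and 142 lower with TNFα than with cobimetinib (1.0% and 0.368%). Near the genes 0 of 59 were called in each, and 3, 3 and 4 had an unadjusted p under 0.05, which is 5.08%, 5.08% and 6.78% beside 9.57%, 7.13% and 10.1% of all regions. At the share called, less than 1 region of 59 would be called. Without untreated replicate 2 the counts near the genes were 1, 0 and 3 (1.69%, 0.0% and 5.08%), beside 0.645%, 0.352% and 6.42% of all regions. Without untreated replicate 1, which leaves replicate 2 as the single untreated library, they were 21, 14 and 5 (35.6%, 23.7% and 8.47%), below the 48.2%, 42.2% and 12.5% of all regions.

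The region that came closest lies near FOSL1 and cannot be assigned to it, since 9 other protein-coding genes have starts within 50 kb. At chr11:65911737-65913090, 11.2 kb upstream and intergenic, with C11orf68 as the nearest gene at 5270 bp, its best peak ranked 6408 and 9374 in untreated cells and 7635 and 11688 with TNFα. Neither cobimetinib list, of 106337 and 69813 peaks, had any peak over it. An absent peak was given the rank after the last of its list. On that scale the difference was −3.48 for cobimetinib against untreated cells (SE 1.01, unadjusted p = 0.000544, adjusted p = 0.0683, limma) and 3.19 for TNFα against cobimetinib (SE 1.01, unadjusted p = 0.0015, adjusted p = 0.0855), while TNFα against untreated cells gave −0.29 (adjusted p = 0.94).

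This region sat near the threshold, and the call depended on the processing. Without untreated replicate 2 the 2 differences were −3.75 and 3.19, and without untreated replicate 1 they were −3.20 and 3.19. The second uses no untreated library, and only its SE fell, from 1.01 to 0.72 or 0.68. A lone untreated library adds nothing to the estimate of the spread. Both cobimetinib ranks are list ends, so the spread between them is that of list lengths. Adjusted p-values (limma) were 0.0303 and 0.0254 with ranks as a share of the list, and 0.0296 and 0.0468 with each library centred on its median. After quantile normalization they were 0.0122 and 0.0138. Other settings left it above the threshold. The adjusted p-values were 0.0702 and 0.108 with the replicate block, 0.125 and 0.169 with scores of at least 30, 0.162 and 0.148 with the 10000 highest peaks, 0.21 and 0.261 with the 40000 highest, and 0.685 and 0.501 by bases covered. Array weights gave 0.819 for cobimetinib against untreated cells and 5.74e-05 for TNFα against cobimetinib. Without any 1 treated library both were above 0.35, with differences from −3.78 to −3.17 for cobimetinib against untreated cells and from 2.88 to 3.50 for TNFα against cobimetinib. The stretch printed above is from this region, which held 3 NF-κB sites and neither an AP-1 word nor a CRE.

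The next region towards FOSL1 showed the same order with a smaller size. At chr11:65902368-65904451, 1795 bp upstream of a start and intergenic, its best peak ranked 2284 and 7789 in untreated cells, 16100 and 8706 with cobimetinib, and 2957 and 1866 with TNFα. All 6 libraries held it, and both cobimetinib ranks were below all 4 others; of all regions 10.7% ranked lower with cobimetinib than in untreated cells without overlap, and 19.9% higher with TNFα than with cobimetinib. The difference was 2.33 for TNFα against cobimetinib (SE 0.88, unadjusted p = 0.00766, adjusted p = 0.226), and −1.49 for cobimetinib against untreated cells (SE 0.88, adjusted p = 0.602). Without untreated replicate 1 or 2 the difference for TNFα against cobimetinib, which uses no untreated library, stayed at 2.33. Its SE fell to 0.71 or 0.74. With array weights, under which 4927 of all 38598 regions were called, its adjusted p-value (limma) was 0.00737.

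Inside the gene the order was different. The intronic FOSL1 region at chr11:65898578-65899703, 0.685 kb into the gene and with 1 AP-1 word, ranked 34087 and 31498 in untreated cells, 16100 and 13085 with cobimetinib, and 13547 and 23205 with TNFα. In untreated replicate 1, both cobimetinib libraries and TNFα replicate 2, its best peak was the FOSL1 promoter peak given above. Both cobimetinib libraries and neither untreated library held the region, with TNFα replicate 1 holding it and replicate 2 not. Its difference with cobimetinib was 1.18 (SE 1.03, adjusted p = 0.63). A strongly marked region 14.4 kb upstream, at chr11:65914983-65917166 over an exon of C11orf68 and with 2 AP-1 words, ranked 459.5 to 2148 in all 6 libraries.

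**Figure D2:**
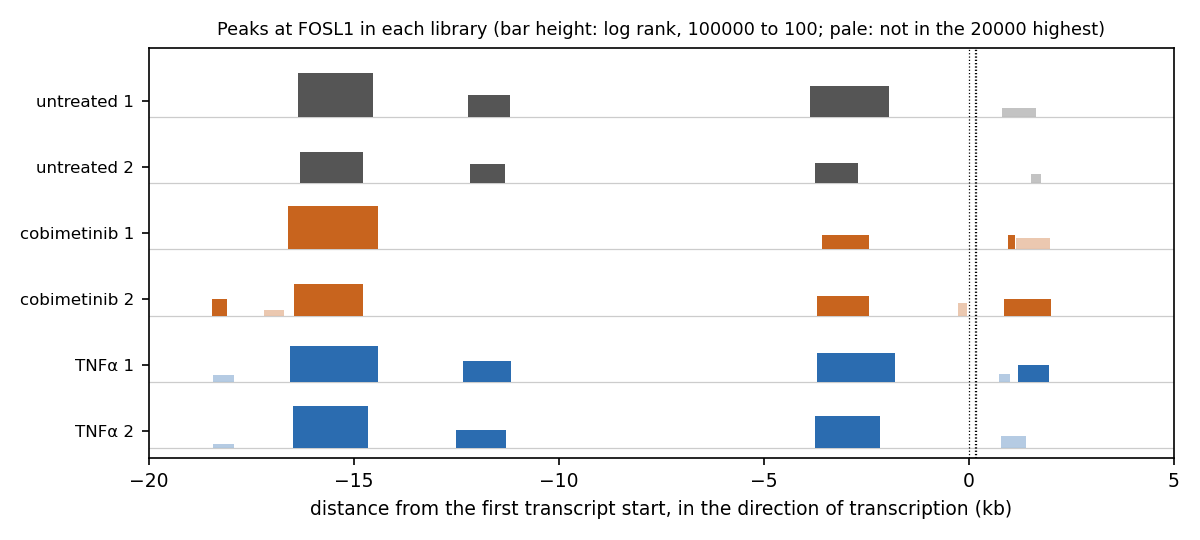
H3K27ac peaks of each library from 20 kb before to 5 kb after the first FOSL1 start (dotted lines mark starts), with bar height for log rank and pale bars for peaks outside the 20000 highest. The peak 11.2 kb upstream is drawn in the untreated and TNFα libraries and in neither cobimetinib library, and the peak 1.8 kb upstream is lower with cobimetinib.

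JUN and ATF3 each had 1 further region held by both untreated and both TNFα libraries and by neither cobimetinib library. The JUN region, at chr1:58754974-58756164 and 27.9 kb downstream of the start, ranked 13452 and 13968 in untreated cells, 27215 and 21422 with cobimetinib, and 14847 and 4756 with TNFα. The ATF3 region, at chr1:212558814-212559510 and 5.82 kb upstream of the first start, ranked 14922 and 5497 in untreated cells, 25898 and 21422 with cobimetinib, and 14643 and 13009 with TNFα. In both, peaks with cobimetinib were present but fell past the 20000 limit. The adjusted p-values for cobimetinib against untreated cells were 0.656 and 0.63, and for TNFα against cobimetinib 0.615 and 0.938.

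Counts put these 3 regions against the background. With cobimetinib 3 of 59 regions (5.08%) were held in untreated cells and not held after treatment, beside 1.6% of all regions, and with TNFα 3 of 59 were held that cobimetinib-treated cells did not hold, beside 5.41%. Both comparisons share the cobimetinib libraries, so they are not separate observations. Over all regions, 0.902% were held by all 4 untreated and TNFα libraries and neither cobimetinib library. Leaving out 1 library of a comparison only relaxes the condition, so these 3 regions stayed by construction and others could only be added. Up to 4 others were added. Not held after cobimetinib were then 6 regions without untreated replicate 1 (10.2% beside 22.1% of all regions), 7 without untreated replicate 2 (11.9% beside 8.33%), and 3 or 4 without a cobimetinib library. With the 10000 highest peaks, the 40000 highest or all deposited peaks 1 region was counted, the FOSL1 region 11.2 kb upstream, which was 2.7% beside 3.39%, 1.19% beside 0.827%, and 0.699% beside 1.11% of all regions.

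Regions held with cobimetinib and not without treatment were also few. With cobimetinib 4 of 59 regions (6.78%) were held that neither untreated library held, beside 3.92% of all regions: the intronic FOSL1 region, a region 1092 bp before JUNB, the RNASEH2A start 14.8 kb after JUNB, and an ATF3 region 1.51 kb after its first start. The JUNB region, at chr19:12788755-12790394 in an intron of a HOOK2 transcript and with 1 AP-1 word, ranked 24741 and 26242 in untreated cells, 19047 and 11304 with cobimetinib, and 10637 and 15081 with TNFα. It was held by both groups of treated libraries and was the 1 region (1.69%) that TNFα-treated cells held and untreated cells did not, beside 3.56%, while 0 of 59 were lost with TNFα, beside 1.0%.

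The ATF3 region in the first intron, at chr1:212566846-212568005, ranked 20987 and 29058 in untreated cells, 7825 and 9255 with cobimetinib, and 17478 and 22609 with TNFα. Both cobimetinib libraries ranked it above the other 4. Of all regions 20.9% ranked higher with cobimetinib than in untreated cells without overlap, and 24.0% lower with TNFα than with cobimetinib. Its difference from untreated cells was 1.54 (SE 0.97, adjusted p = 0.621, limma). The 2 regions held with cobimetinib and not with TNFα, 3.39% beside 4.39%, were both near JUNB, at a HOOK2 start 12.1 kb before it and over an exon of MAST1 48.9 kb after it.

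The strongest marked region of ATF3 was not at a start with a peak. At chr1:212560808-212562181, 3.15 kb upstream of the first start and intergenic, it ranked 606.5 and 1176 in untreated cells, 130 and 308.5 with cobimetinib, and 98.5 and 218 with TNFα. All 4 treated libraries ranked it above both untreated ones, an order shown by 20.9% of all regions for cobimetinib and 16.9% for TNFα. The difference was 2.53 for TNFα against untreated cells (SE 1.14, unadjusted p = 0.0262, adjusted p = 0.612) and 2.08 for cobimetinib (SE 1.14, adjusted p = 0.566), and 2.05 and 1.60 without untreated replicate 2. The first ATF3 start itself had no peak within 1 kb in the ranks above, which come from the starts 43 kb further on.

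**Figure D3:**
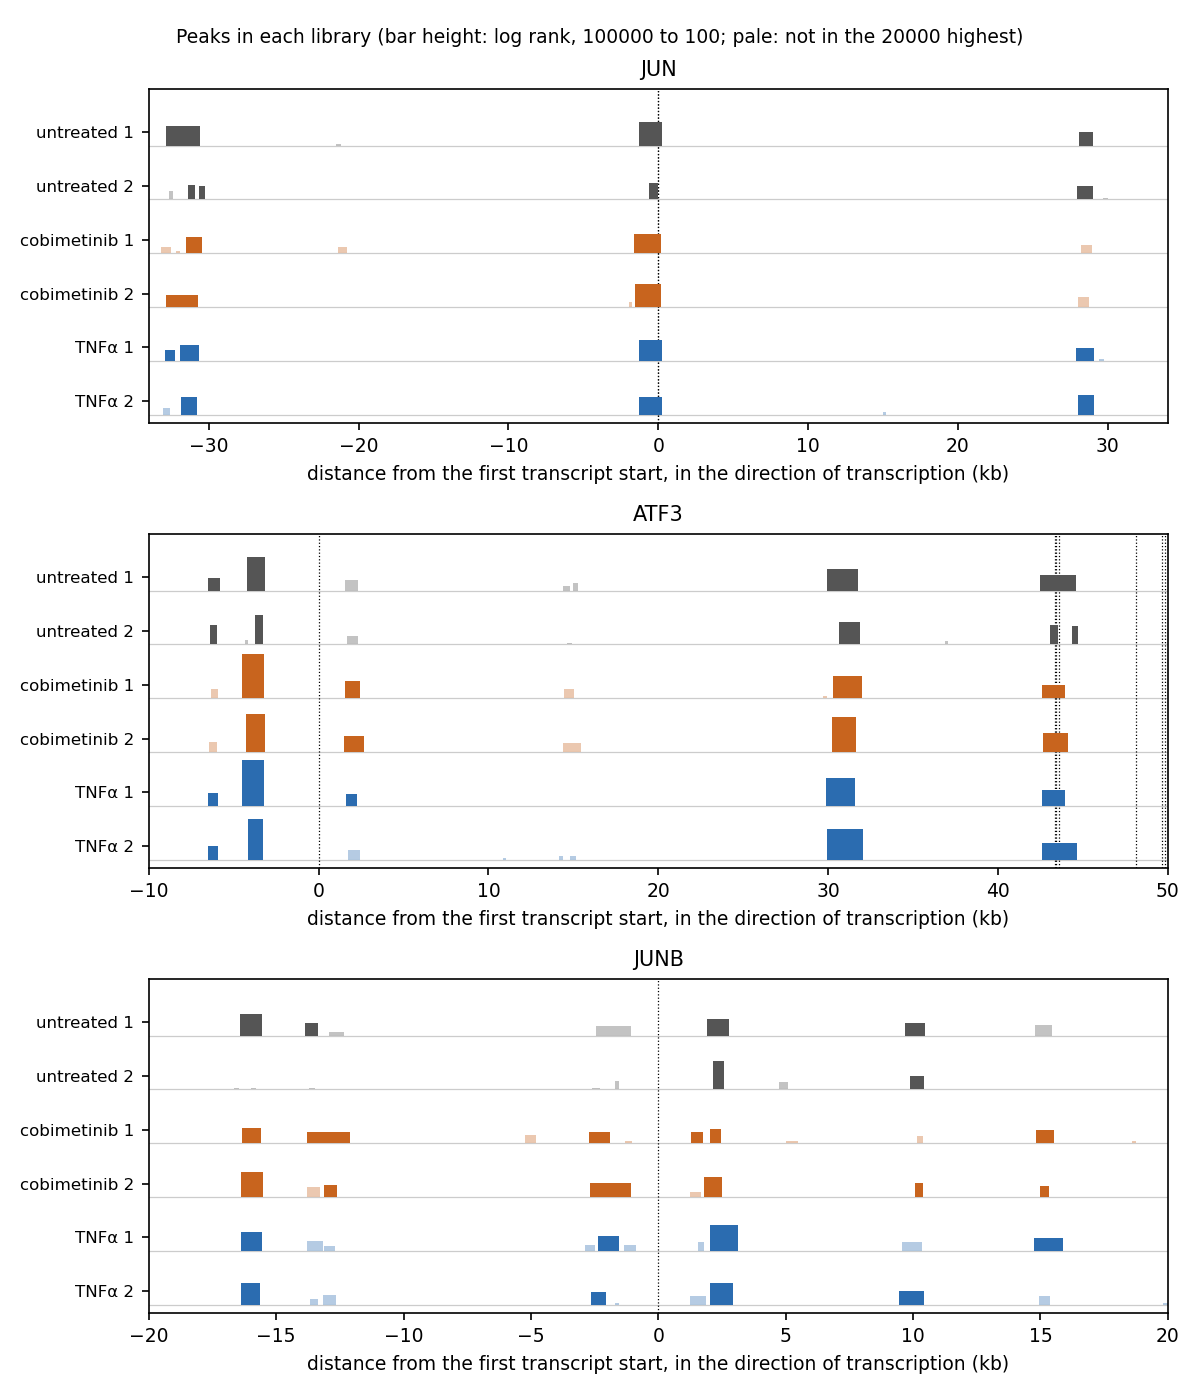
H3K27ac peaks of each library around JUN, ATF3 and JUNB against distance from the first start (dotted lines mark starts), drawn as for FOSL1. The JUN peak 27.9 kb downstream and the ATF3 peak 5.82 kb upstream are pale with cobimetinib. JUNB has no peak at its start, and all 6 libraries have one further on, in a region at a HOOK2 start.

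For FOS, FOSB, FOSL2 and JUND no region was held by both libraries of one group and neither of another. The best-ranked region of FOS away from its start, at chr14:75258214-75259885 and 18.9 kb upstream, ranked 141 and 3794 in untreated cells, 508 and 464 with cobimetinib, and 2411 and 1008 with TNFα. Both TNFα ranks were below both cobimetinib ranks, beside 24.0% of all regions, with a difference of −1.68 (SE 1.04, adjusted p = 0.618, limma). That of FOSB was the ERCC1 start 7.19 kb downstream, at chr19:45478264-45479324, with ranks from 41 to 647.5, and it may serve ERCC1, a DNA repair gene, rather than FOSB.

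The intragenic FOSL2 region at chr2:28408489-28409999, with 2 AP-1 words, ranked 9531 in untreated replicate 1 and had no peak in replicate 2, 19047 and 22772 with cobimetinib, and 11907 and 7361 with TNFα. Both TNFα libraries ranked it above both cobimetinib libraries, beside 19.9% of all regions, with a difference of 1.15 (SE 1.01, adjusted p = 0.829, limma). Upstream of JUND, a region at chr19:18303816-18305650 ranked 1116 to 6214 in the 6 libraries. A second JUND region, at chr19:18291590-18293800 and 9968 bp upstream, ranked 5912 and 2321 in untreated cells, 3119 and 1220 with cobimetinib, and 6702 and 6794 with TNFα. Ranks were lower with TNFα than in either other group, as in 26.2% of all regions against untreated cells and 24.0% against cobimetinib. Its difference for TNFα against cobimetinib was −1.79 (SE 0.90, unadjusted p = 0.0459, adjusted p = 0.485). Another JUND region, intergenic at chr19:18328476-18329177 and 46.9 kb upstream, ranked 12222 and 36798 in untreated cells, 28678 and 8000 with cobimetinib, and 110125 in TNFα replicate 1, with no peak in replicate 2. Both TNFα libraries were below the other 4, again beside 26.2% of all regions against untreated cells and 24.0% against cobimetinib. The difference from cobimetinib was −2.74 (SE 1.15, adjusted p = 0.336, limma). This region was named after its values were seen, and LSM4 is its nearest gene.

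**Figure D4:**
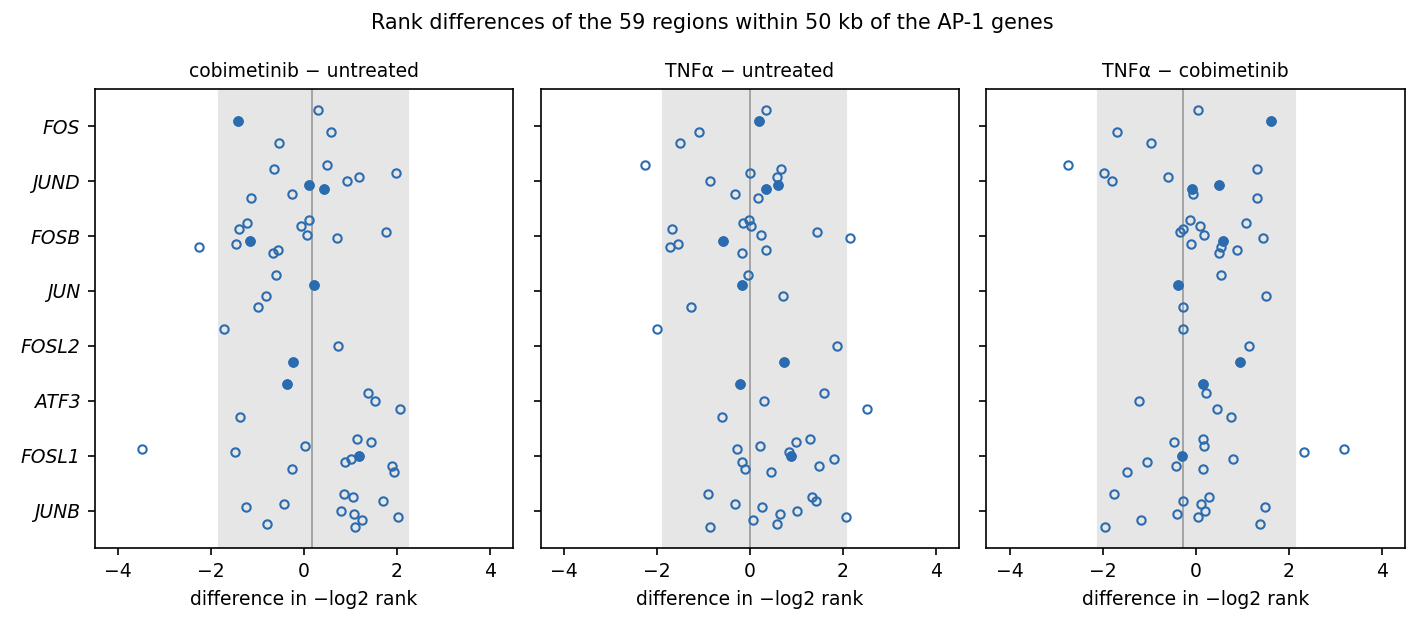
Differences in −log2 rank of the 59 regions within 50 kb of the genes in the 3 comparisons, with filled points for regions at a start of the gene itself. Grey bands span the 5th to 95th percentile of all 38598 regions and the line is their median. Most points lie in the band, and the FOSL1 region 11.2 kb upstream lies at −3.48 and 3.19 in the comparisons with cobimetinib.

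The AP-1 word was as common near these genes as elsewhere. It stood in the central 1 kb of 18 of 59 regions (30.5%), beside 32.7% of all 38598 regions, and over their whole length 19 of the 59 held 26 such words. ATF3 had it in 4 of 5 regions with 6 words, FOSB in 4 of 12 with 6, JUND in 3 of 9 with 4, FOSL1 in 2 of 11 with 3 and FOS in 0 of 4. The CRE stood in the centre of 4 of 59 regions (6.78%), beside 1.74%, and the CArG box in 5 (8.47%), beside 5.09%. Of the 3 regions not held with cobimetinib, those of JUN and ATF3 held 1 AP-1 word each and that of FOSL1 held none.

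The length of marked chromatin around the genes gave no call either. Within 50 kb of its starts FOSL1 had 7.03 and 3.70 kb under the 20000 highest peaks in untreated cells, 5.38 and 6.08 kb with cobimetinib, and 6.85 and 7.42 kb with TNFα. ATF3 had 5.61 and 2.98 kb, 5.31 and 5.17 kb, and 5.61 and 5.66 kb in the same order. For FOS the values were 7.68 and 4.05 kb, 7.66 and 6.65 kb, and 5.32 and 4.98 kb. FOSL1 and ATF3 had more with TNFα than with cobimetinib without overlap, beside 17.3% of genes, and FOS and JUNB less, beside 23.6%.

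Against untreated cells, JUNB was higher with cobimetinib, at 5.85 and 5.46 kb against 5.05 and 0.989 kb, beside 12.0% of genes, and ATF3 was higher with TNFα, beside 8.07%. None was lower without overlap with cobimetinib or TNFα than in untreated cells, beside 3.62% and 3.11% of genes. In the exact permutation test, two-sided, each of these 6 gave p = 0.333, the smallest that 2 libraries against 2 allow. Untreated replicate 2, with its narrow peaks, had the lowest length of the 6 libraries for every gene. Without it 6 of the 8 genes had less length with cobimetinib, and 6 less with TNFα, than in the remaining untreated library, beside 60.4% and 64.5% of genes. Without untreated replicate 1 all 8 had more with either treatment, beside 76.6% and 75.4%.

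**Figure D5:**
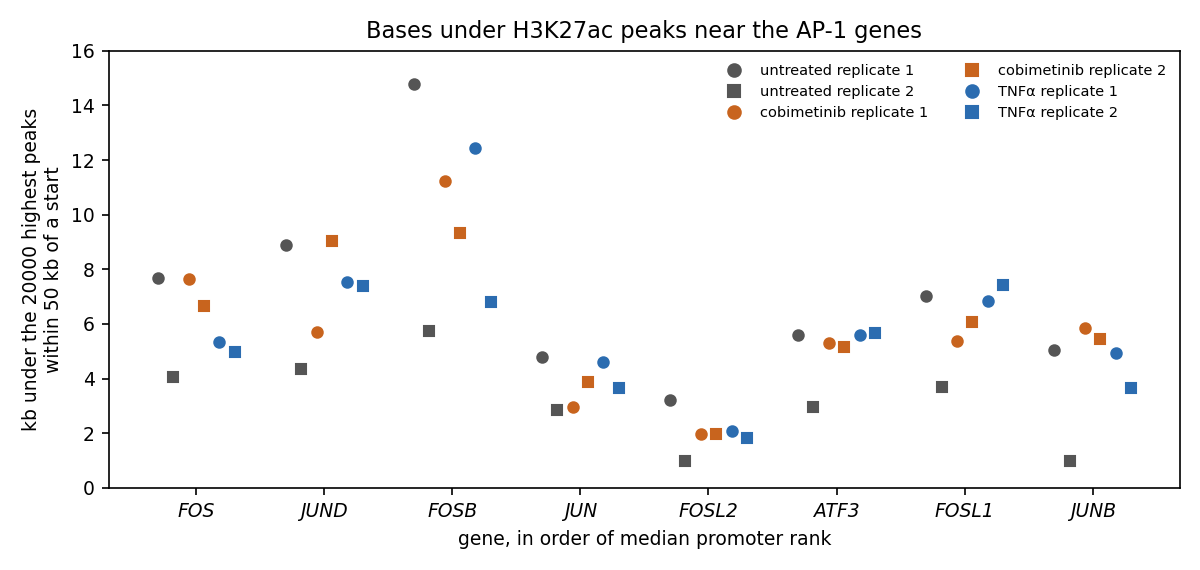
Kilobases under the 20000 highest H3K27ac peaks within 50 kb of a start of each gene, by library. Untreated replicate 2 is the lowest library at each gene, from 0.989 kb for JUNB to 5.75 kb for FOSB, and FOSB has the widest range, up to 14.8 kb.

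Other genes of the pathway gave no call at their promoters. Of 15 partners of the bZIP kind, such as ATF2 and the small MAF proteins, 12 could be tested, as could all 14 kinases and factors that act upstream and 14 of 16 known AP-1 targets, and limma called 0 in each list and comparison. Median differences for cobimetinib against untreated cells were 0.73 for partners, 0.29 for upstream genes and 0.00 for targets, beside 0.36 for all promoters. For TNFα against untreated cells they were 0.34, 0.72 and 0.18, beside 0.13, and for TNFα against cobimetinib −0.10, 0.03 and −0.02, beside −0.24.

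The genes of these lists farthest apart between TNFα and cobimetinib were read library by library. ATF2, which pairs with JUN on the JUN promoter, ranked 6178 and 50470 in untreated cells, 2747 and 4121 with cobimetinib, and 17478 and 11688 with TNFα (difference −2.09, adjusted p = 0.974, limma). SRF, which binds the CArG box, ranked 8112 and 1472, 1503 and 1555, and 4842 and 2575 in the same order (difference −1.21, adjusted p = 1.0). LAMB3, a laminin chain and AP-1 target, ranked 7165 and 8297, 12106 and 15063, and 5458 and 4692 (difference 1.42, adjusted p = 0.979). JDP2, MAPK3 and CCND1 had differences of −1.47, 1.04 and −1.11 and adjusted p-values of 1.0.

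By Euclidean distance between −log2 promoter ranks over the 6 libraries, the genes most like FOSL1 were WASHC2A at 0.67, and ENSG00000289791 and AMACR at 0.69, with ranks from 13869 to absent. Those most like JUN were NOP10 and NUTM1 at 0.52 and FAF2 at 0.54. Those most like ATF3 were PHLDB1 at 0.41, GPS2 at 0.48 and NAXE at 0.60. NOP10 and NUTM1 have equal values, as have ENSG00000289791 and AMACR, because they share a promoter peak.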

How the data were processed

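H3K27ac CUT&RUN peak lists of 6 libraries were used, 2 a group. Per the labels and the study's methods, the authors aligned reads to hg38 with BWA 0.7.15 and called peaks with MACS2 2.1.1 in each library, without IgG background. Column 5 of the deposited lists is the authors' whole-number peak score, at least 20 in every list. Depth is unknown. Groups came from sample titles.

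Here scores were used only as ranks within a list, with ties at their mean rank. Starts came from GENCODE 44. The 20000 highest peaks of each library, with ties at the limit taken in list order, were merged within 100 bp. limma 3.58.1 (R 4.3.3; trend and robust) compared −log2 ranks in 1 fit of the 3 groups, with Benjamini-Hochberg adjustment over all promoters or regions, and was tested on simulated data. An exact permutation test served single values. Read counts were not used here, so the study's DESeq2 test was not run. The genes, gene lists and tests were chosen with earlier results of these data known. Genes of each list are named when called, or else the 2 farthest apart between TNFα and cobimetinib; regions when called, held by both libraries of one group and neither of another, or else the best-ranked away from the start. The searches for CArG, JUN-type and NF-κB words, median centring and quantile normalization were added after the data were seen.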

Additional observations from a re-analysis of the deposited data

How the results depend on the processing

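The limits are that untreated replicate 2 has narrow peaks and tied scores, that the depth is unknown and ranks do not carry it, and that an absent peak takes the end of its list. Leaving out untreated replicate 1 leaves that library alone, assumed to vary like the other groups, and then 3329 and 2525 promoters and 18619 and 16294 regions were called against untreated cells; the cause was not tested. Over the 6 libraries left out in turn, promoters called ran from 0 to 3329 (cobimetinib against untreated), 0 to 2525 (TNFα against untreated) and 0 to 196 (TNFα against cobimetinib), and regions from 9 to 18619, 4 to 16294 and 38 to 4827, in place of 240, 113 and 528. Of the 7 promoters of the genes 0 to 1 were called, and of the 59 regions 0 to 21, 0 to 14 and 0 to 5. In the lists, genes were called against untreated cells only without untreated replicate 1, where calls also rose over all 13544 promoters, as given above. Those calls are therefore not a result about the 12 partners, 14 upstream genes and 14 targets tested. The lists gave no call for TNFα against cobimetinib. Differences ran from −0.62 to 1.05 for JUN, from −0.47 to 0.69 for JUND, and from −0.59 to 0.022 for the FOSL1 region 11.2 kb upstream with TNFα against untreated cells. Leaving a library out only relaxes the condition for regions held by one group and not another, so their counts could not fall. Regions held only after cobimetinib numbered 4 to 11 and only before it 3 to 7. For TNFα against untreated cells these were 1 to 6 and 0 to 6, and against cobimetinib 4 to 6 and 3 to 9. The highest counts with cobimetinib were 18.6% and 11.9%, beside 9.95% and 8.33% of all regions. For TNFα against untreated cells they were 10.2% and 10.2%, beside 15.9% and 7.26%. For TNFα against cobimetinib they were 10.2% and 15.3%, beside 7.86% and 10.5%. Genes with more covered length than untreated cells numbered 1 to 8 with cobimetinib and 1 to 8 with TNFα. Those with less numbered 0 to 6 and 0 to 6. Against cobimetinib TNFα gave 2 to 5 with more and 2 to 4 with less. These counts, too, could not fall when a library was left out. Shares over all genes were computed only without an untreated library, so the other counts are not a result about the genes. Wider promoter peaks numbered 1 to 4, 0 to 3 and 0 to 2 in the 3 comparisons, and narrower ones 0 to 2, 0 to 7 and 2 to 5. The 7 came without untreated replicate 2. The median width of all best promoter peaks was 1335 bp in the remaining untreated library, against 1053 and 881 bp with TNFα. Shares over all promoters were not computed for these settings, so these counts are not a result about the genes.

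Replicate numbers did not pair the libraries, since the correlation of their deviations ran from −0.0168 to 0.0988 over promoters and from 0.0863 to 0.155 over regions. With the replicate block 3, 0 and 1 promoters and 336, 195 and 501 regions were called, and none near the genes.

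Of other settings for promoters, no filter gave 40, 7 and 6 calls, the 2 kb window 2 and 3 in the comparisons with cobimetinib, and, for TNFα against cobimetinib, array weights 260, median centring 4 and quantile normalization 2. For cobimetinib against untreated cells, regions called were 8 with array weights, 158 with ranks as a share of the list, 0 by bases covered, and 61 and 132 with the 10000 and 40000 highest peaks. For TNFα against untreated cells they were 13 with array weights, 0 by bases covered, 170 after quantile normalization, and 28 and 64. For TNFα against cobimetinib they were 4927 with array weights, 0 by bases covered, 880 after quantile normalization and 331 with 40000 peaks. Near the genes 1 region was called in each comparison with cobimetinib with ranks as a share of the list, median centring or quantile normalization. With array weights 4 of 59 were called for TNFα against cobimetinib, beside the 4927 of all 38598 regions. These counts are not a result about the genes.

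Signs turned for FOS (TNFα against cobimetinib) and FOSB (cobimetinib) by bases covered, at −0.38 and 0.43, and for FOSL1 in the 2 kb window, at −0.78. JUN turned to −0.062 and −0.32 with ranks as a share of the list and median centring, and JUND to −0.16 and −0.42, and −0.21 after quantile normalization. By bases covered the FOSL1 region 11.2 kb upstream gave 0.33 for TNFα against untreated cells and the JUND region 10 kb upstream 0.043 for TNFα against cobimetinib.

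With the 10000 and 40000 highest peaks, all peaks, and peaks over 50% of a region, regions held only after cobimetinib numbered 1, 2, 2 and 2, and only before it 1, 1, 1 and 4; for TNFα against untreated cells gains were 0, 2, 1 and 0 and losses 0, 1, 2 and 0; against cobimetinib gains were 1, 2, 2 and 3 and losses 1, 4, 5 and 2. Those held only after cobimetinib were 2.7%, 2.38%, 1.4% and 3.39%, beside 5.39%, 2.31%, 1.4% and 4.14% of all regions. The losses of 1, 4 and 5 against cobimetinib were 2.7%, 4.76% and 3.5%, beside 6.13%, 2.99% and 1.63%. For TNFα against untreated cells the gains of 0, 2 and 0 were 0.0%, 2.38% and 0.0%, beside 4.61%, 1.64% and 3.66%. The losses of 1 and 2 there were 1.19% and 1.4%, beside 0.653% and 1.06%. The gain of 1 against cobimetinib was 2.7%, beside 7.52%. Counts with no share given here or above are not a result about the genes. The genes with more or less covered length numbered 0 to 4 in each comparison with the 10000 or 40000 highest peaks or windows of 20 or 100 kb. Shares over all genes were not computed for these settings, so these counts are not a result about the genes. The 6 genes with a promoter peak in every library were 6 under each alternative. Median centring and quantile normalization were chosen after seeing the data. The cause of these changes was not tested.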
